A study of Mus musculus with 12 samples.

Results

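Peritoneal cavity (PerC) B cells share their compartment with mast cells and macrophages, and transcripts of both were followed in libraries of sorted B cells. The set held 10 genes, 5 of mast cells (Cma1, Cpa3, Mcpt4, Tpsb2 and Kit) and 5 of macrophages (Mrc1, C1qb, Timd4, Lyz2 and Csf1r). Of these, 9 had a row among the 56644 genes with a symbol, and Tpsb2 was not analysed here. Cma1 and Cpa3 were chosen by their measured values in these same libraries, so their levels are given as a description with no test. The other 8 were listed as known genes of the same cell types, with earlier results of these data in view.

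RNAseq covered 12 libraries in 4 groups of 3 (B2 and MemB, each from control and from KI mice), and B2 were sorted as IgD+IgM+ and MemB as IgD-IgM-. KI mice had a conditional allele at Rosa26 for a shortened, overactive form of GPR34 and a GFP reporter, and Cd21-Cre turned that allele on. Controls were littermates. Cd21-Cre acts in mature B cells and in follicular dendritic cells, so mast cells and macrophages are not among the cells it is used to target. The labels call the replicates biological but do not name the mouse behind each library, its age or its sex. With 3 mice given per genotype, B2 and MemB libraries may share mice. RNA was amplified before sequencing, and the values are RSEM's expected counts per gene, between 29895068 and 39732124 in total per library. Genes of B cells were high in every library, with a summed level of 7 B cell genes (Cd79a, Cd79b, Ms4a1, Pax5, Ebf1, Cd22 and Blk) between 2875 and 3439 normalized CPM, where normalized CPM are counts scaled to library size with TMM factors. By Xist and Y-linked counts, replicate 3 of each group came from a mouse of the other sex than replicates 1 and 2, and in the 4 replicate 3 libraries sex and replicate number cannot be told apart.

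Mast cells store proteases, histamine and proteoglycans in granules and release them when their surface receptors are engaged. Connective tissue mast cells, the kind that lives in the PerC, depend on the receptor Kit and its ligand stem cell factor, and they hold chymases, tryptases and carboxypeptidase A3. Resident PerC macrophages clear dying cells and bind phosphatidylserine through Tim4, the product of Timd4. Their survival depends on the receptor encoded by Csf1r. In bulk samples, fewer cells of a type and less RNA per cell cannot be told apart.

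Cma1 encodes a chymase and lies on the minus strand of chromosome 14 of GRCm39 from 56178908 to 56182132, and Mcpt4, another chymase gene of connective tissue mast cells, lies on the same strand from 56297086 to 56299770. Neither overlaps another annotated gene. Cpa3, for carboxypeptidase A3, lies on chromosome 3 from 20269774 to 20296362, and its span holds Gm31320 and Mir7007 as well. Kit lies on chromosome 5 from 75735576 to 75817404. The promoters of the 3 protease genes are shown because all 3 were high in both KI B2 replicate 3 and control MemB replicate 3. Each window runs from 250 bases before to 50 bases after the RefSeq start on GRCm38.p6, 5′ to 3′ on the strand of the gene, and was found at a single place in GRCm39. Capitals mark the letters GATAA or their reverse complement TTATC, the core that GATA factors bind. The windows lie on GRCm39 at chr14:56182083-56182382 for Cma1, chr3:20296296-20296595 for Cpa3 and chr14:56299718-56300017 for Mcpt4, all on the minus strand.
Cma1: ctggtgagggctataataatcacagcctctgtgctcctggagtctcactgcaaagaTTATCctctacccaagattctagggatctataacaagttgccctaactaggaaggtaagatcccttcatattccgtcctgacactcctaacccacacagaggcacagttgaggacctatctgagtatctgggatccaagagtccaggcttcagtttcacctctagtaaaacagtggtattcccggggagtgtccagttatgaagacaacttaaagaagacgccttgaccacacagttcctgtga
Cpa3: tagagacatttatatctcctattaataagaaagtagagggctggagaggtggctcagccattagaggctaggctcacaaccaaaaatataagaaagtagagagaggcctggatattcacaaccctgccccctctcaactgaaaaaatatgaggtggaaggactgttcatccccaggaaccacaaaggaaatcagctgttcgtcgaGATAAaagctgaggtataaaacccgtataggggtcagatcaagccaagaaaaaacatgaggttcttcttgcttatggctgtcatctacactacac
Mcpt4: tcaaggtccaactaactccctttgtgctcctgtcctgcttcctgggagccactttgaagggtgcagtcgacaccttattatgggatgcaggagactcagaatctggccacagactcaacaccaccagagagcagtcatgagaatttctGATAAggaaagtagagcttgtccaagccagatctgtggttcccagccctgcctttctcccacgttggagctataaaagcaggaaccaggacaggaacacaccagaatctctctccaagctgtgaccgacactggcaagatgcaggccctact
One match was found in each of these 3 windows and none in those of Kit, Mrc1, C1qb, Timd4 and Lyz2. Over all 27025 promoter windows of the same length, 25.8% held at least 1 match. CATGTG or CACATG, letters of an E-box that MITF can bind, had no match in the 4 mast cell windows, 2 in that of Mrc1 and 1 each in those of C1qb and Timd4, and 14.1% of all windows held it. GAGGAAG or CTTCCTC, letters that PU.1 can bind, had 2 matches in the window of Mrc1 and 1 in that of Kit, and 13.5% of all windows held it. A match is a description of the letters and not of a site in use.

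Cma1 and Cpa3 were high in 3 of the 12 libraries, which were KI B2 replicate 3 and control MemB replicates 1 and 3, and low in the other 9. Cma1 had 21, 13 and 30 counts in control B2 replicates 1 to 3, 25, 25 and 617 in KI B2, 1287, 27 and 3952 in control MemB and 19, 26 and 12 in KI MemB. Cpa3 had 16, 4 and 17 counts in control B2, 15, 16 and 972 in KI B2, 274, 18 and 2597 in control MemB and 22, 7 and 5 in KI MemB. Both genes were thus high in 2 of the 3 control MemB libraries and in 1 of the 3 KI B2 libraries, and in normalized CPM control MemB replicate 2 lay within the range of the KI MemB libraries. In normalized CPM, Cma1 was 52.2 ± 60.6 in control MemB, 0.614 ± 0.207 in KI MemB, 5.75 ± 8.73 in KI B2 and 0.690 ± 0.243 in control B2 (SD, n = 3 each). The corresponding levels of Cpa3 were 28.9 ± 42.9, 0.377 ± 0.326, 8.61 ± 14.2 and 0.399 ± 0.229 (SD, n = 3 each). The spread within control MemB and KI B2 was larger than the means for both genes.

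Mcpt4 and Kit were listed as known mast cell genes with earlier results of these data in view. Both were high in KI B2 replicate 3 and control MemB replicate 3 but not in control MemB replicate 1. Mcpt4 had 7, 2 and 4 counts in control B2, 2, 3 and 942 in KI B2, 10, 3 and 205 in control MemB and 4, 8 and 4 in KI MemB. Kit, the stem cell factor receptor, had 2, 5 and 6 counts in control B2, 6, 3 and 401 in KI B2, 11, 4 and 1253 in control MemB and 7, 13 and 3 in KI MemB. Neither gene separated KI from control in either cell type, since replicates 1 and 2 overlapped throughout.

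**Figure D1:**
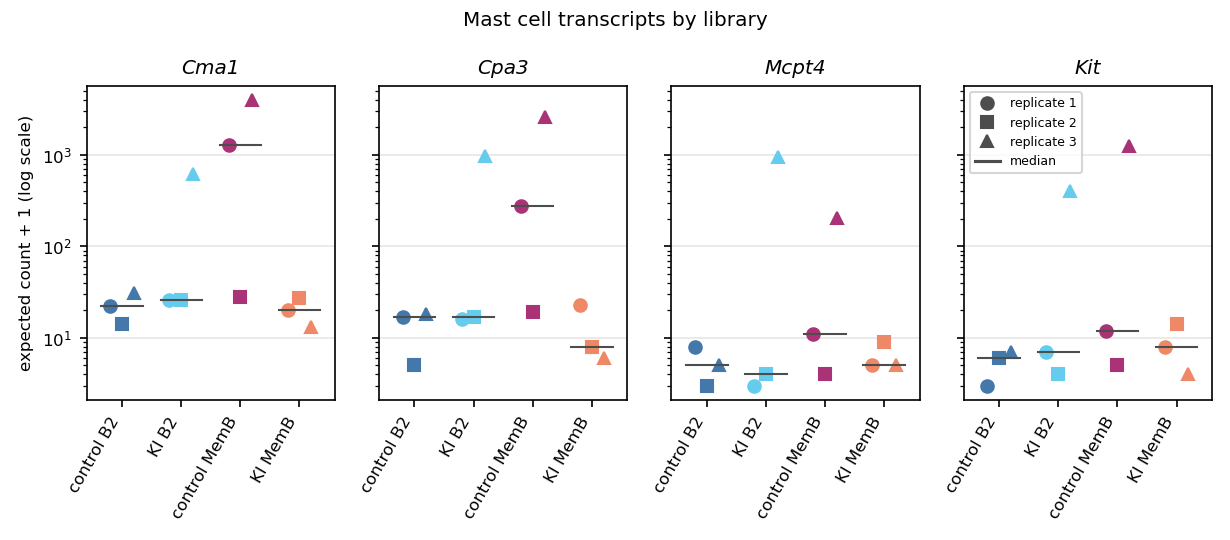
Expected counts plus 1 (log axis) of Cma1, Cpa3, Mcpt4 and Kit in the 12 libraries, with 1 panel per gene, the 4 groups along the horizontal axis, symbols for replicates 1 to 3 and bars at group medians. KI B2 replicate 3 and control MemB replicate 3 lie far above most other libraries in all 4 panels. Control MemB replicate 1 does so for Cma1 (1287 counts, more than the 617 of KI B2 replicate 3) and Cpa3 (274 counts) only.

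The shares of mast cell transcripts in these 3 libraries are given as a description, since Cma1 and Cpa3 were picked for their pattern. Shares are of the summed counts of Cma1, Cpa3, Mcpt4 and Kit. Mcpt4 took 32.1% in KI B2 replicate 3, 2.56% in control MemB replicate 3 and 0.632% in control MemB replicate 1. Cma1 took 21.0%, 49.4% and 81.4% of that sum in the same order. The share of Cpa3 was 33.2% in KI B2 replicate 3, 32.4% in control MemB replicate 3 and 17.3% in control MemB replicate 1. No interval is given, since each share rests on 1 library. Reads of amplified RNA that carry no molecular identifiers cannot be counted as separate molecules. Per kilobase of the canonical transcript, Mcpt4 was the highest of the 4 genes in KI B2 replicate 3, with a level of 21.8 normalized CPM per kb against 16.9 for Cpa3, 14.5 for Cma1 and 1.96 for Kit. In control MemB replicate 3 the order was Cma1 (109 normalized CPM per kb), Cpa3 (53.0), Kit (7.17) and Mcpt4 (5.57). The order of the levels thus differed between the 2 libraries that were high in all 4 genes.

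The other 9 libraries were not free of Cma1 and Cpa3, and each held a small share of their counts. Each of these 9 libraries held between 0.198% and 0.496% of the counts of Cma1 over the series (6054 counts) and between 0.101% and 0.555% of those of Cpa3 (3963 counts). Mcpt4 had 0.168% to 0.838% of its series count in each of the 10 libraries under 5%, and Kit 0.117% to 0.759% in each of 10. Genes that depend on sex were counted in the libraries of the sex that lacks them too. Each of the 4 replicate 3 libraries, which were high in Xist, held 0.304% to 0.363% of the series count of Ddx3y, 0.279% to 0.438% of Kdm5d, 0.283% to 0.419% of Uty and 0.266% to 0.566% of Eif2s3y, all on the Y chromosome. Each of the other 8 libraries held 0.219% to 0.544% of the series count of Xist, the RNA that silences the second X chromosome. The low shares of Cma1 reached just below this range of Xist, and those of Cpa3, Mcpt4 and Kit ran past both of its ends. The macrophage members, with fewer counts, had 0% to 3.78% in their libraries under 5%. The source of the low counts was not tested.

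**Figure D2:**
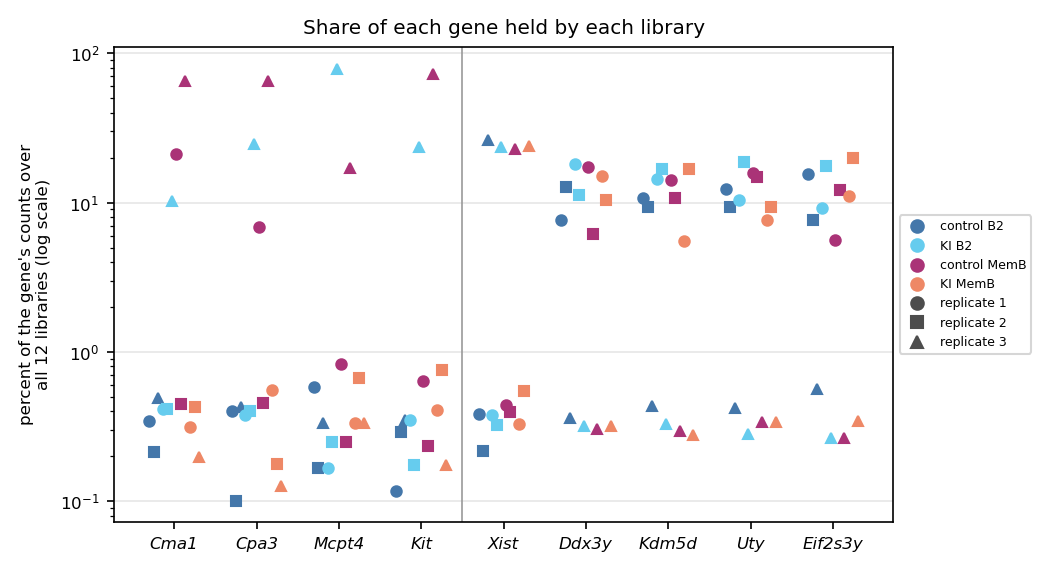
Percent of each gene's counts over all 12 libraries that each library held (log axis), for the 4 mast cell members on the left and for Xist and 4 Y-linked genes on the right, with colours for groups and symbols for replicates. The lower bands lie between 0.198% and 0.496% for Cma1, 0.101% and 0.555% for Cpa3, 0.168% and 0.838% for Mcpt4 and 0.117% and 0.759% for Kit, against 0.219% and 0.544% for Xist.

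Of the other genes of connective tissue mast cells, some were highest in KI B2 replicate 3 or control MemB replicate 3 and others were not. The list held 14 genes, of which 11 had more than 3 counts in control MemB replicate 3 and 7 in KI B2 replicate 3, against 3 to 5 in the other 10 libraries. Hdc, the enzyme that makes histamine, had 373 counts in control MemB replicate 3 and 80 in KI B2 replicate 3, with at most 39 elsewhere. Mrgprb1 had 109 and 86 counts in these libraries, with at most 3 elsewhere. Mrgprb2, a receptor for basic secretagogues, had 118 counts in control MemB replicate 3 and 0 in KI B2 replicate 3, while Tph1, which makes serotonin's precursor, had 0 and 178. Fcer1a and Ms4a2, subunits of the high-affinity IgE receptor, had 44 and 25 counts in control MemB replicate 3, and at most 3 and 1 in any other library. Il1rl1, the receptor for interleukin 33, had 590 counts in control MemB replicate 3, 90 in control MemB replicate 2 and 68 in KI B2 replicate 3, with at most 6 elsewhere. Cyp11a1, a steroid-making enzyme, had 559 counts in control MemB replicate 3 and 116 in control MemB replicate 2, with at most 4 elsewhere, KI B2 replicate 3 included. Control MemB replicate 2, which was low in all 4 members, thus held counts of both genes.

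In control MemB replicate 1, where Cma1 reached 1287 counts, Hdc had 4 counts, Mrgprb1 had 1, and Fcer1a, Ms4a2, Mrgprb2 and Tph1 had 0. The same library held 596 counts of Slc18a2, the vesicular monoamine transporter, 193 of Hpgds and 106 of Mitf. Gata2, a transcription factor of mast cells and basophils, had 7 counts there and 0 in the other 11 libraries. Prss34, a protease of basophils, had 49 counts there and at most 1 elsewhere, while Cd200r3, also of basophils, had 0 there and 12 in KI B2 replicate 3. Mcpt8, the protease that defines basophils, and Mcpt1, Mcpt2 and Mcpt9, proteases of mucosal mast cells, were at 0 in all 12 libraries, as was the tryptase gene Tpsab1. A count of 0 allows up to 3 counts in a library, for counting error alone. Mitf was highest in control B2 replicate 2 (577 counts) and KI MemB replicate 2 (569 counts), and Hpgds in control MemB replicate 2 (719 counts). Slc18a2 had 19 to 617 counts over the 12 libraries, and its level was highest in control MemB replicate 1 (17.0 normalized CPM), followed by KI B2 replicate 2 (15.2).

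Macrophage transcripts were low and scattered, and no library was high in all 5 members. Mrc1, the mannose receptor, had 7, 1 and 4 counts in control B2, 0, 4 and 34 in KI B2, 483, 72 and 10 in control MemB and 0, 1 and 2 in KI MemB. Every control MemB library lay above every KI MemB library for Mrc1, although control MemB replicate 3 did so with 10 counts against 2. Lyz2, which encodes lysozyme and is expressed in macrophages, monocytes and neutrophils, had 1, 1 and 88 counts in control B2, 64, 11 and 15 in KI B2, 3, 297 and 44 in control MemB and 1, 6 and 2 in KI MemB. Csf1r had 8, 0 and 4 counts in control B2, 4, 0 and 0 in KI B2, 19, 471 and 0 in control MemB and 0, 5 and 3 in KI MemB. Lyz2 and Csf1r were both highest in control MemB replicate 2, and Mrc1 in control MemB replicate 1.

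C1qb, for a chain of the complement component C1q, and Timd4 were near 0 outside 1 or 2 libraries. C1qb had 54 counts in KI MemB replicate 1 and 0 or 1 in each of the other 11 libraries. Timd4 had 32 and 27 counts in control MemB replicates 1 and 3 and 0 or 1 in each of the other 10. C1qa and C1qc, which encode the remaining chains of C1q, were at 0 in every library, including the one with C1qb. By whole gene spans, introns included, C1qb, Lyz2, Mrc1 and Kit each overlap 1 other annotated gene, and Csf1r and Cpa3 overlap 2 each. Overlap of exons was not checked, and use of strand in the counting is not given in the sources used here. Whether reads of these genes are shared with an overlapping gene was thus not tested.

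**Figure D3:**
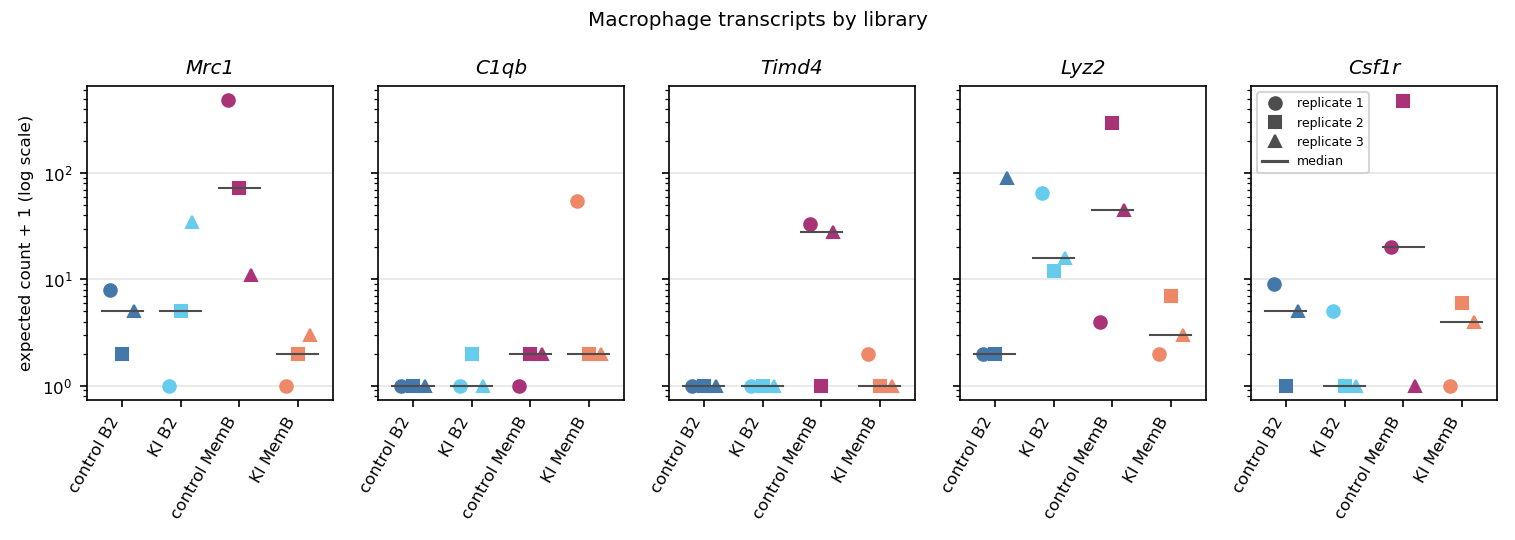
Expected counts plus 1 (log axis) of Mrc1, C1qb, Timd4, Lyz2 and Csf1r in the 12 libraries, arranged as for the mast cell genes. The highest point belongs to control MemB replicate 1 for Mrc1 and Timd4, to control MemB replicate 2 for Lyz2 and Csf1r and to KI MemB replicate 1 for C1qb.

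Genes that define resident PerC macrophages were largely at 0. Of 18 other macrophage genes, 10 were at 0 in all 12 libraries, among them Gata6, the transcription factor of these macrophages, and Vsig4, Marco, Fcna, Mertk, Cd14 and Fcgr1. The 7 tested genes of that list, Adgre1, Icam2, Prg4, Apoe, Cd68, Itgam and Maf, were counted in most libraries, and B cells can express several of them. Their list had a summed level of 67.4 to 183 normalized CPM per library. Among 9 genes of monocytes and small macrophages, control MemB replicate 2 stood apart with 1101 counts of Ccr2, a chemokine receptor of monocytes, 282 of F13a1 and 235 of Chil3. F13a1 and Chil3 had at most 6 and 2 counts in any other library. Other genes of that list were highest elsewhere, Ly6c2 in KI MemB replicate 3 (690 counts, against 433 in control MemB replicate 2), Cd163 in control B2 replicate 1 (183 against 0) and Folr2 in control B2 replicate 2 (52 against 1). Control MemB replicate 2 was also the library with the highest Csf1r and Lyz2. Its summed level of 7 genes of T and NK cells was 97.0 normalized CPM, against 1.61 to 67.2 in the other 11 libraries, with Cd3e highest there (2330 counts) but Cd3d and Cd4 highest in other libraries. Of 9 neutrophil genes, 8 were at 0 in every library.

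**Figure D4:**
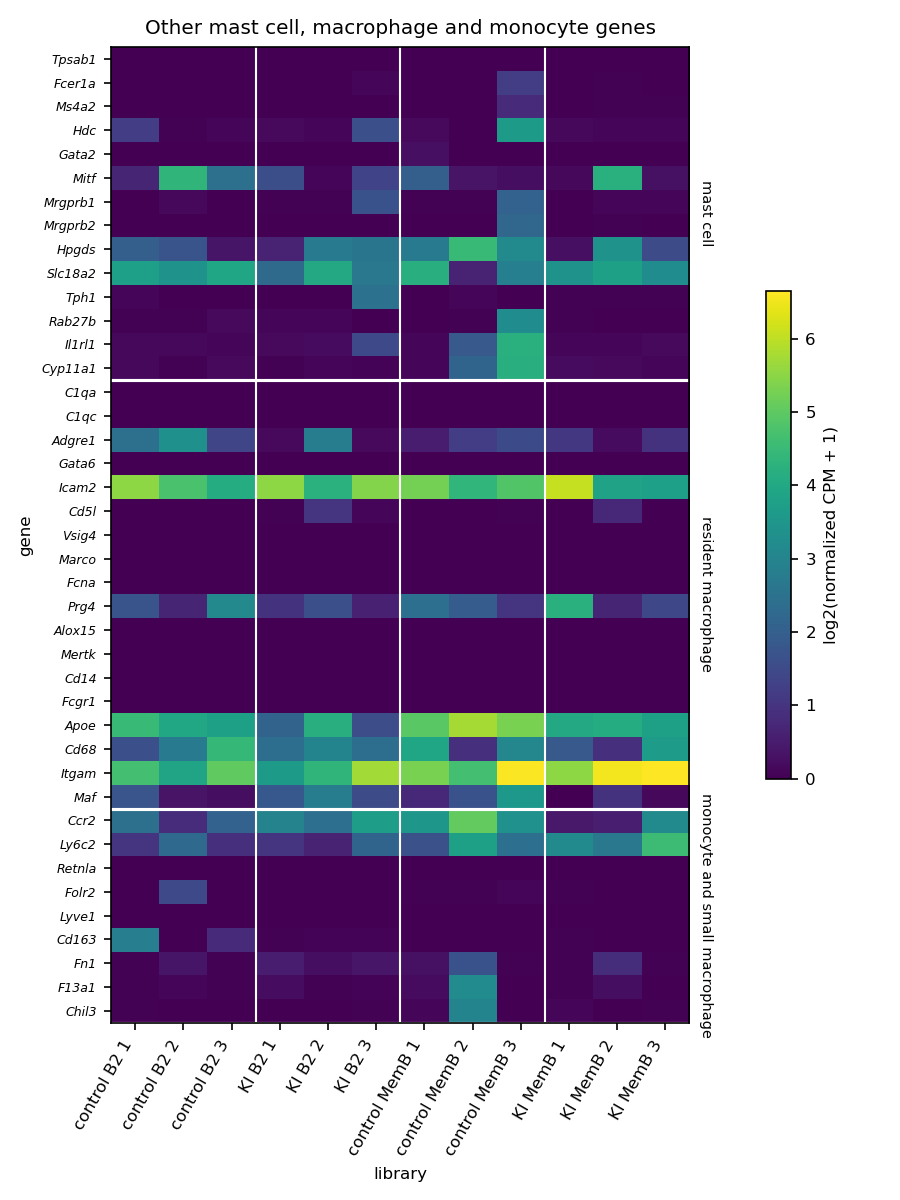
Level of each listed gene in each library as log2(normalized CPM + 1), with libraries in columns by group and genes of mast cells, resident macrophages and monocytes in rows. In the upper block, control MemB replicate 3 has 11 genes over 3 counts, and in the middle block 10 genes are at 0 in all 12 libraries.

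Cma1 and Cpa3 were chosen for their high libraries, so the share of counts in a single library is given as a description. The highest library held 51.9% of the summed normalized CPM of Timd4, 54.9% of Lyz2, 67.0% of Cma1, 68.2% of Cpa3, 75.6% of Kit, 76.0% of Mcpt4, 78.0% of Mrc1, 91.3% of Csf1r and 92.6% of C1qb. That library was control MemB replicate 3 for Cma1, Cpa3 and Kit, but KI B2 replicate 3 for Mcpt4. Over the 15028 genes tested, which hold 5 of these members, the highest library held a median of 21.1%, and nothing is read from this side by side, since Cma1 and Cpa3 were picked. The common biological coefficient of variation, as a percentage, was 91.4% over the 15028 genes tested.

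The study's main contrast is between KI and control MemB. The filter on low counts left 5 of the 9 members, Cma1, Cpa3, Kit, Mrc1 and Lyz2, and a member kept only through the group where it is high had to differ, so their number supports nothing. The log2 fold change of Kit was -5.67 ± 2.02 (SE), with an adjusted p of 0.324 by the quasi-likelihood test of edgeR, adjusted over all genes tested by Benjamini-Hochberg. It was -7.23 ± 2.43 (SE) for Mrc1, with an adjusted p of 0.306 in edgeR, and -5.10 ± 2.26 (SE) for Lyz2, with an adjusted p of 0.393 in edgeR. Thus 0 of these 3 members were called, at limits of 0.05 for the adjusted p and 1 for the log2 fold change, where 0.279% of all genes tested were called. At an unadjusted p below 0.05 there were 3 of 3, against 11.1% of all genes tested. DESeq2, the program that the study used for this step, was run as well. Its Wald test gave no p for Kit and called 1 of the other 2, Mrc1 (adjusted p = 0.0130), against 3.09% of all genes tested. The fitted log2 fold changes of Cma1 and Cpa3, which chose these genes, were -6.40 and -6.25. With control MemB replicate 3 left out, the log2 fold change was -4.92 for Cma1, -3.46 for Cpa3 and 0.19 for Kit. Mrc1 stayed between -8.11 and -5.08 and Lyz2 between -5.98 and -2.84 (without control MemB replicate 2) over the 12 fits that each left out 1 library.

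By normalized CPM, Mrc1 (lower in KI) did not overlap between KI and control MemB. That was 1 of the 3 tested members other than Cma1 and Cpa3, against 12.1% of all genes tested. C1qb, which is not among the genes tested, did not overlap either (higher in KI), with 1 count in each of the nearest libraries. Genes outside the members were called in this contrast. Ighd and Ighm, the antigens of the sort, fell in KI MemB by 1.35 and 2.46 on the log2 scale (adjusted p = 9.24e-05 and 4.85e-11, edgeR's test). The summed level of 7 genes of T and NK cells was 65.2 to 97.0 normalized CPM in control MemB and 1.61 to 47.7 in KI MemB. None of the 7 was at 0 in all libraries. Of the 5 tested, edgeR called 0, against 0.279% of all genes tested. At an unadjusted p below 0.05 there were 4, against 11.1% of all genes tested. A gene kept by the filter on low counts only through the group where it is high had to differ, so this number supports nothing. The part of other cells in the member values was not tested. Gpr34, which mast cells and macrophages can express, had 660, 663 and 1029 counts in control MemB replicates 1 to 3. Cma1 had 1287, 27 and 3952 there. In KI MemB, Gpr34 had 3884, 5496 and 4757 counts, beside 19, 26 and 12 of Cma1. Gpr34 was called higher in KI MemB (log2 fold change 2.72, adjusted p = 0.000218, edgeR's test).

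In B2, edgeR called 0 of the 3 tested members between KI and control, where 0.00665% of all genes tested were called, and at an unadjusted p below 0.05 there was 1, Kit, against 5.74% of all genes tested. DESeq2 called 0 of the 2 members it gave a p for, with none for Kit, against 0.286% of all genes tested. Kit had a value of 4.61 ± 1.94 (SE) on the log2 scale, with an adjusted p of 0.840 in edgeR, and became -0.09 without KI B2 replicate 3. Mrc1 had 1.29 ± 1.89 (SE), with an adjusted p of 1.00 in edgeR, which became -1.31 without that library. For Lyz2 it was -0.04 ± 1.89 (SE), with an adjusted p of 1.00 in edgeR and a range of -1.50 to 4.60 when each library was left out in turn. The fitted values of Cma1 and Cpa3 in B2 were 3.05 and 4.42, and 0.03 and 0.13 without KI B2 replicate 3. Of the 3 tested members, 0 separated KI from control B2 completely, where 10.2% of all genes tested did, and the other 6 members overlapped too.

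The difference between the KI effects in MemB and B2 was tested with an interaction term, which called 0 of the 3 members against 0.0732% of all genes tested. It was -10.28 for Kit (standard error 2.80, adjusted p = 0.277, edgeR's test), -8.52 for Mrc1 (standard error 3.01, adjusted p = 0.399) and -5.06 for Lyz2 (standard error 2.85, adjusted p = 0.669). Kit became -4.42 without control MemB replicate 3 and -5.58 without KI B2 replicate 3, and Lyz2 ranged from -9.70 (without control B2 replicate 3) to -2.80 (without control MemB replicate 2). At an unadjusted p below 0.05 there were 2, Kit and Mrc1, against 8.47% of all genes tested. DESeq2 on the same genes gave no p for Kit and called 0 of the other 2, against 1.35% of all genes tested. With no filter beyond 1 count, edgeR called Kit (adjusted p = 0.0247), against 0.164% of all genes in that fit. DESeq2 on all genes with a symbol, a run added after the data were seen, called Mrc1 (adjusted p = 0.0167). That run called 420 of 25570 genes. Between MemB and B2 over both genotypes, the log2 fold changes were 1.32 for Kit (standard error 1.21, adjusted p = 0.718), 1.07 for Mrc1 (standard error 1.48, adjusted p = 0.839) and -0.66 for Lyz2 (standard error 1.33, adjusted p = 0.902, edgeR's test for all 3). The sign of each turned when 1 library was left out, to -1.60 for Kit without control MemB replicate 3, -0.02 for Mrc1 without control MemB replicate 1 and 1.66 for Lyz2 without control B2 replicate 3. Here edgeR called 0 of the 3, against 1.02% of all genes tested, and 0 of 3 had an unadjusted p below 0.05, against 12.9%. DESeq2 gave no p for Kit and called 0 of the other 2, against 3.85% of all genes tested. Of the 14 other mast cell genes, 5 were tested, Hdc, Mitf, Hpgds, Slc18a2 and Il1rl1, and edgeR called 0 of them in each of the 4 contrasts. The contrasts are in the order MemB, B2, the difference between the KI effects, and MemB against B2. Of all genes tested, 0.279%, 0.00665%, 0.0732% and 1.02% were called. At an unadjusted p below 0.05 there were 2, 0, 2 and 0 of the 5, against 11.1%, 5.74%, 8.47% and 12.9% of all genes tested. The filter on low counts bears on these genes as on the members, so these numbers support nothing either.

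**Figure D5:**
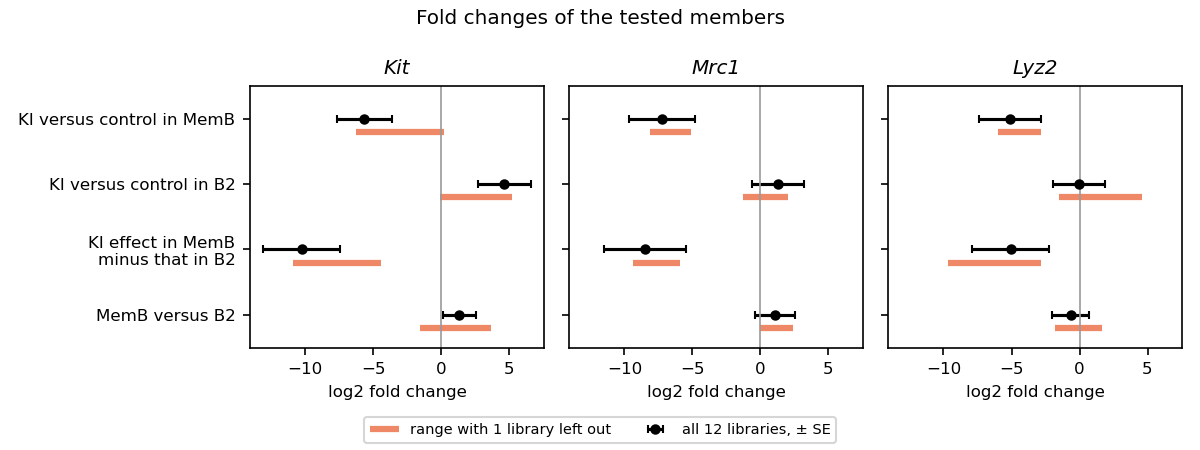
Log2 fold change with standard error of Kit, Mrc1 and Lyz2 in the 4 contrasts (points, all 12 libraries) and the range over the 12 fits that each left out 1 library (bars). The bar of Kit crosses 0 in MemB (up to 0.19), in B2 (down to -0.09) and in MemB against B2 (-1.60 to 3.67). For the difference between the KI effects it does not. Kit had a high library in each cell type, and no fit that left out 1 library removed both.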

How the data were processed

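Reads were cleaned by the authors with cutadapt 4.5, mapped on mm39 by STAR 2.7.11a and turned into estimated counts by RSEM 1.3.3, per the labels and the methods of the study. They deposited expected counts per gene, not normalized, in a table of 56941 rows for all 12 libraries, and 0 columns were left without a library. Expected counts need not be whole (32.2% of non-zero values were not), and were rounded. Rows without a gene symbol (297 rows, 0.385% to 0.463% of the counts of a library) were left out. Genes were tested with edgeR 4.0.16 in R 4.3.3 (TMM, the filterByExpr step set to 10 counts, and a robust quasi-likelihood model with 4 group means over 12 libraries, Benjamini-Hochberg adjustment over 15028 genes). Called genes had an adjusted p under 0.05 and changed by more than 1 on the log2 scale in either direction. The methods of the study set these limits for DESeq2, its own program for this step. The SE is the fold change divided by the square root of F. p-values measure the spread between these libraries. On simulated counts of 14747 genes for KI against control in MemB, edgeR recovered 11 of 82 genes changed by 2 on the log2 scale, 32 of 60 changed by 4 and 30 of 58 changed by 6, with 1 false call of 74. The simulation changed a gene alike in all KI MemB libraries, so it does not cover genes that are high in a single library of a group.

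The members and all gene lists were chosen with earlier results of these data known. Named genes were the members, the genes of the lists where called or where at or near 0, and the 10 tested genes most like the mean of each set of members; other list genes are named after their values were seen. Some listed genes are not reported here. Motifs were chosen with the members known. Gene positions were read from GENCODE M39 (GRCm39, the build named mm39), and promoters are those of RefSeq on GRCm38.p6, found for 8 of the 9 members. Ribosomal RNA took 29.3% to 38.3% of a library's counts, and replicates of a group correlated at 0.882 to 0.922. Alternatives were other normalizations and filters, DESeq2 1.42.0, a block for the replicate number (within genotype where B2 and MemB are compared), fewer libraries and each library left out in turn.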

Additional observations from a re-analysis of the deposited data

How the results depend on the processing

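The numbers of genes called over the whole table depended on the test and the filter more than on the normalization. Between KI and control MemB, edgeR called 42 genes, but 89 with no filter beyond 1 count, 23 without replicate 3 of all groups, 13 with only the 6 MemB libraries and 15 to 48 with each library left out in turn. DESeq2 called 464 on the same genes and 760 on all genes with a symbol, a run added after the data were seen. In B2 edgeR called 1 gene, 8 with no filter, 2 without replicate 3 and 1 to 2 with a library left out, and DESeq2 called 43 and 188. For the difference between the KI effects the number was 11, and 42 with no filter, 5 to 10 with a library left out, and 203 and 420 with DESeq2. Between MemB and B2 it was 154, and 237 with no filter, 87 without replicate 3, 104 to 157 with a library left out, and 579 and 821 with DESeq2. With a block for the replicate number, set within each genotype where B2 and MemB were compared, the fits called 36, 1, 10 and 124 genes in the same order. Deviations of same-numbered libraries from their group means correlated between -0.00419 and 0.0273, which are low values. In 10 of 12 comparisons the libraries correlated best with their own number. These included every comparison of B2 with MemB within a genotype. The exceptions were between control and KI, where libraries come from different mice and cannot bear on shared mice. The replicate 3 libraries of all groups also share a sex, so this is only a hint at pairing.

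Among the members other than Cma1 and Cpa3, DESeq2 called 1 between KI and control MemB, Mrc1, in both runs (464 of 15028 and 760 of 25570 genes called). In the difference between the KI effects, edgeR with no filter called 1 of 7, Kit, where it called 42 of 25570 genes. DESeq2 on all genes called 1 of the 3 members it gave an adjusted p for, Mrc1 (adjusted p = 0.0167), where it called 420 of 25570 genes. The sign of the log2 fold change turned in these fits. In KI against control MemB, leaving out each library in turn moved Kit from -6.25 to 0.187, above 0 without control MemB replicate 3. In B2 it moved Kit from -0.0869 (without KI B2 replicate 3) to 5.18, Mrc1 from -1.31 (without KI B2 replicate 3) to 2.01 and Lyz2 from -1.50 (without KI B2 replicate 1) to 4.60 (without control B2 replicate 3). In MemB against B2 it moved Cpa3 from -0.564 to 2.97 and Kit from -1.60 to 3.67, both below 0 without control MemB replicate 3, Mrc1 from -0.0197 (without control MemB replicate 1) to 2.36, and Lyz2 from -1.79 to 1.66 (without control B2 replicate 3). Without replicate 3 of all groups the value was -1.32 for Mrc1 and 4.96 for Lyz2 in B2, and 1.77 for Lyz2 in MemB against B2, and with the replicate block it was 1.28 for Lyz2 in B2. The cause of these turns was not tested. The block changed no member's call, but it moved values. Kit went from -5.67 to -1.63 in MemB, from 4.61 to 1.66 in B2 and from -10.28 to -3.33 for the difference between the KI effects, and Cpa3 from -6.25 to -3.89, from 4.42 to 2.52 and from -10.66 to -6.15. Cma1 went from 3.05 to 1.85 in B2. Kit could not be fitted without replicate 3 of all groups, within the 6 libraries of a cell type or at the stricter minimum count, nor Lyz2 within those of MemB or Mrc1 within those of B2, being under the filter on low counts. Where a gene is at 0, depth allows up to 3 counts in a library.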

Other observations

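Among the 15028 genes tested, those most like the mean log2 level of the 4 mast cell members over the 12 libraries were Gm44914 (Pearson r = 0.979), Gpx7 (0.971), Fhit (0.934), Gm36796 (0.924), Nr1d1 (0.910), Gabbr2 (0.906), Timp2 (0.905), Rec8 (0.887), Gm57305 (0.875) and Bend4 (0.873). These values rest on a few high libraries, are given with no p, and share library and depth with the members. Gpx7, a glutathione peroxidase of the endoplasmic reticulum, had 11.2 normalized CPM in control MemB replicate 3, 3.11 in KI B2 replicate 3 and 1.11 in control MemB replicate 1, and at most 0.472 elsewhere. Gm44914 had 4.10, 2.49 and 1.80 in the same libraries and at most 0.154 elsewhere. Gabbr2, a subunit of the GABA-B receptor, had 7.32 and 8.91 in control MemB replicate 3 and KI B2 replicate 3 but 0.0285 in control MemB replicate 1, the split that Mcpt4 and Kit showed.

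The genes most like the mean of the 5 macrophage members were F830208F22Rik (r = 0.949), Gm14276 (0.939), Rag1 (0.939), Prickle1 (0.923), Gm13536 (0.922), Umad1 (0.919), Gm5075 (0.919), Igll1 (0.916), Gm16235 (0.912) and Gm37844 (0.905), over the same 12 libraries and with no p. Defining genes of macrophages at 0 could not enter this ranking, which covers tested genes only. Rag1, which starts antigen receptor rearrangement, had 19.7 and 33.2 normalized CPM in control MemB replicates 1 and 2 and at most 0.492 in the other 10 libraries. Igll1, part of the surrogate light chain of B cell precursors, had 9.85 and 8.81 in these libraries and at most 1.20 elsewhere.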
